A study of Mus musculus with 495 samples.

Results

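The 9 genes described here were listed together under exocytosis and vesicle docking: Snap25, Stx1a, Vamp2, Syt7, Syt13, Sytl4, Rab3a, Rab3b and Aplp1. In these steps secretory granules dock at the plasma membrane and fuse with it. The genes were taken by name as 9 of the 23002 rows of the count table, but with earlier results of these data known. The table holds 495 single cells of mouse embryonic pancreas, read with Smart-seq2, a full-length cDNA method, in 1 well per cell on 7 plates. At embryonic day E15.5 the cells came from Neurog3-eGFP mice, which carry the green reporter at the locus of Neurog3, the transcription factor that starts endocrine differentiation. The labels give plates EA01 and EA03 the code Neurog3 (73 and 70 cells), EA02 and EA05 the code endocrine (72 and 85 cells) and EA04 the code duct (66 cells). At E17.5 the cells of plates EA06 (57 cells) and EA07 (72 cells) came from Neurog3-Cre, Rosa-mTmG mice, in which Cre driven by Neurog3 switches on a membrane green reporter in cells that have made Cre and in their descendants. Day and strain therefore go together. In the count table every column, those of EA06 and EA07 included, is named after the knock-in line; the labels were followed.

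Each cell was put in 1 class from its counts per 1000000 counts (CPM) of marker genes that are not among the 9. The 66 cells of plate EA04 are the duct plate. Outside it, cells with Ins1, Ins2, Gcg, Sst, Ghrl or Ppy at 1000 CPM or more are hormone-positive (19, 16, 17 and 50 cells on EA01, EA02, EA03 and EA05, and 27 and 25 on EA06 and EA07). Of the rest, 186 cells with Neurog3 at 20 CPM or more are Neurog3-positive, and 64 cells with Fev, a marker of later endocrine precursors, at 20 CPM or more and Neurog3 below 20 CPM are Fev-positive. The last 25 cells fell in none of the 3. The Neurog3-positive class holds 47 cells that also had Fev. The hormone-positive class holds 26 cells that also had Neurog3 and 58 that also had Fev, each at 20 CPM or more. Animals, litters and cultures are not named in the labels. Each class therefore counts as 1 sample, no test across samples could be run, and intervals cover counting error only. They are at 95%, and because reads carry no molecular identifiers they do not cover PCR copies.

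Regulated secretion runs through a shared set of proteins. The plasma membrane carries the SNARE proteins Snap25 and syntaxin 1a (Stx1a), the granule carries the SNARE protein Vamp2, and their helices zip together to drive fusion. Synaptotagmins such as Syt7 sense calcium, small GTPases of the Rab3 family and the Rab27a effector granuphilin (Sytl4) bring granules to the membrane, and islet cells use this set to release hormones. Syt13 is an unusual synaptotagmin that lacks the calcium binding of its relatives, and Aplp1 is a membrane protein of the amyloid precursor family found in neurons and endocrine cells.

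In the GRCm38 annotation (GENCODE M21) Snap25 lies at chr2:136713453-136782428, Stx1a at chr5:135023482-135051100, Vamp2 at chr11:69088490-69092384, Syt7 at chr19:10389090-10453180, Syt13 at chr2:92915098-92956058, Rab3a at chr8:70754679-70758677 and Rab3b at chr4:108879063-108943324, all on the + strand. Sytl4 lies at chrX:133936385-133981812 and Aplp1 at chr7:30434982-30445535, both on the - strand. Rab3b shares 482 exon bases with the antisense gene 8030443G20Rik and Rab3a shares 29 with Mpv17l2, and the strand used in counting is not given in the sources used here, so reads in those bases could belong to either gene.

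The promoter table, from RefSeq on GRCm38.p6, holds 5 of the 9 genes, with no entry for Snap25, Vamp2, Syt7 and Syt13. The 250 bases before the start are shown for 4 genes that carry the main patterns below. Aplp1 was read from the Neurog3-positive class on, and Sytl4 mostly in insulin cells. Rab3a (the second of 2 listed starts is shown) and Rab3b had higher summed levels in Fev-positive than in Neurog3-positive cells on every plate that held both. Capitals mark each match to CANNTG, the E-box read by basic helix-loop-helix factors such as Neurog3 and Neurod1, which reads the same on both strands.
Aplp1, chr7:30445583-30445832, - strand: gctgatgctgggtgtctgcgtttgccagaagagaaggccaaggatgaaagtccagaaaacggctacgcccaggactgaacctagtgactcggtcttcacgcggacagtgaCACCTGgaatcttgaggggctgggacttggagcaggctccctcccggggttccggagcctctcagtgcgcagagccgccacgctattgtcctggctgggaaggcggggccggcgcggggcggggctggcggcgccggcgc
Rab3a, chr8:70754852-70755101, + strand: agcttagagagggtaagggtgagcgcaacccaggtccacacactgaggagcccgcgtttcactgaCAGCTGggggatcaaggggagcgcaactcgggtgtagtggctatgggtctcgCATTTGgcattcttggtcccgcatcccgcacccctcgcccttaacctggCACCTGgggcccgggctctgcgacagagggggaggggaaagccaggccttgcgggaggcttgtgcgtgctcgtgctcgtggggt
Rab3b, chr4:108878820-108879069, + strand: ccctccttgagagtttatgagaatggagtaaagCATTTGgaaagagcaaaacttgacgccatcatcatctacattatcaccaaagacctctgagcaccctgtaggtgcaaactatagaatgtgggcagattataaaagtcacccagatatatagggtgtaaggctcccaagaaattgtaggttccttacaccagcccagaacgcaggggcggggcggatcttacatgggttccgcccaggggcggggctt
Sytl4, chrX:133981813-133982062, - strand: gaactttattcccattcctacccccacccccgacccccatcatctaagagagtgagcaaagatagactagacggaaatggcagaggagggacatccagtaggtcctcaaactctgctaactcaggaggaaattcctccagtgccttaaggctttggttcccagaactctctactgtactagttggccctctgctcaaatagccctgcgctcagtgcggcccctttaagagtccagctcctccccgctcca
Aplp1 and Rab3b hold 1 match each, the Rab3a window shown holds 3 and the Sytl4 window holds 0. The other Rab3a window (chr8:70754453-70754702), not shown, also holds 0. The Stx1a window (chr5:135023232-135023481), not shown either, holds 1. Of all 32851 promoter windows of that length, 66.2% hold at least 1 match, and the median is 1. Of the more specific forms, CAGCTG, found in 13% of windows, occurs once in the Rab3a window shown and once in the Stx1a window. CAGATG or its reverse CATCTG, found in 14.4%, occurs in none of the windows shown. TTCAGCACC, a part of the binding motif of the neuronal gene repressor REST, was searched on both strands and occurs in none of them, against 0.301% of all windows.

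The 9 genes were not read together along the endocrine path. Syt13 and Aplp1 were low on the duct plate and already at 613 and 640.0 CPM in the Neurog3-positive cells. Snap25, Stx1a, Rab3a, Rab3b and Sytl4 were over 2-fold higher in the Fev-positive than in the Neurog3-positive cells. Sytl4 was also the 1 gene over 2-fold higher in the hormone-positive than in the Fev-positive cells, and most of its reads came from insulin cells. The number of the 9 genes at 20 CPM or more in a cell had a median of 1 on the duct plate, 2 in Neurog3-positive, 4 in Fev-positive and 5 in hormone-positive cells. No duct plate cell, 10.2% of Neurog3-positive, 48.4% of Fev-positive and 55.8% of hormone-positive cells had 5 or more. With every cell thinned to 200000 counts these shares were 0%, 10.2%, 45.3% and 55.2%.

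**Figure D1:**
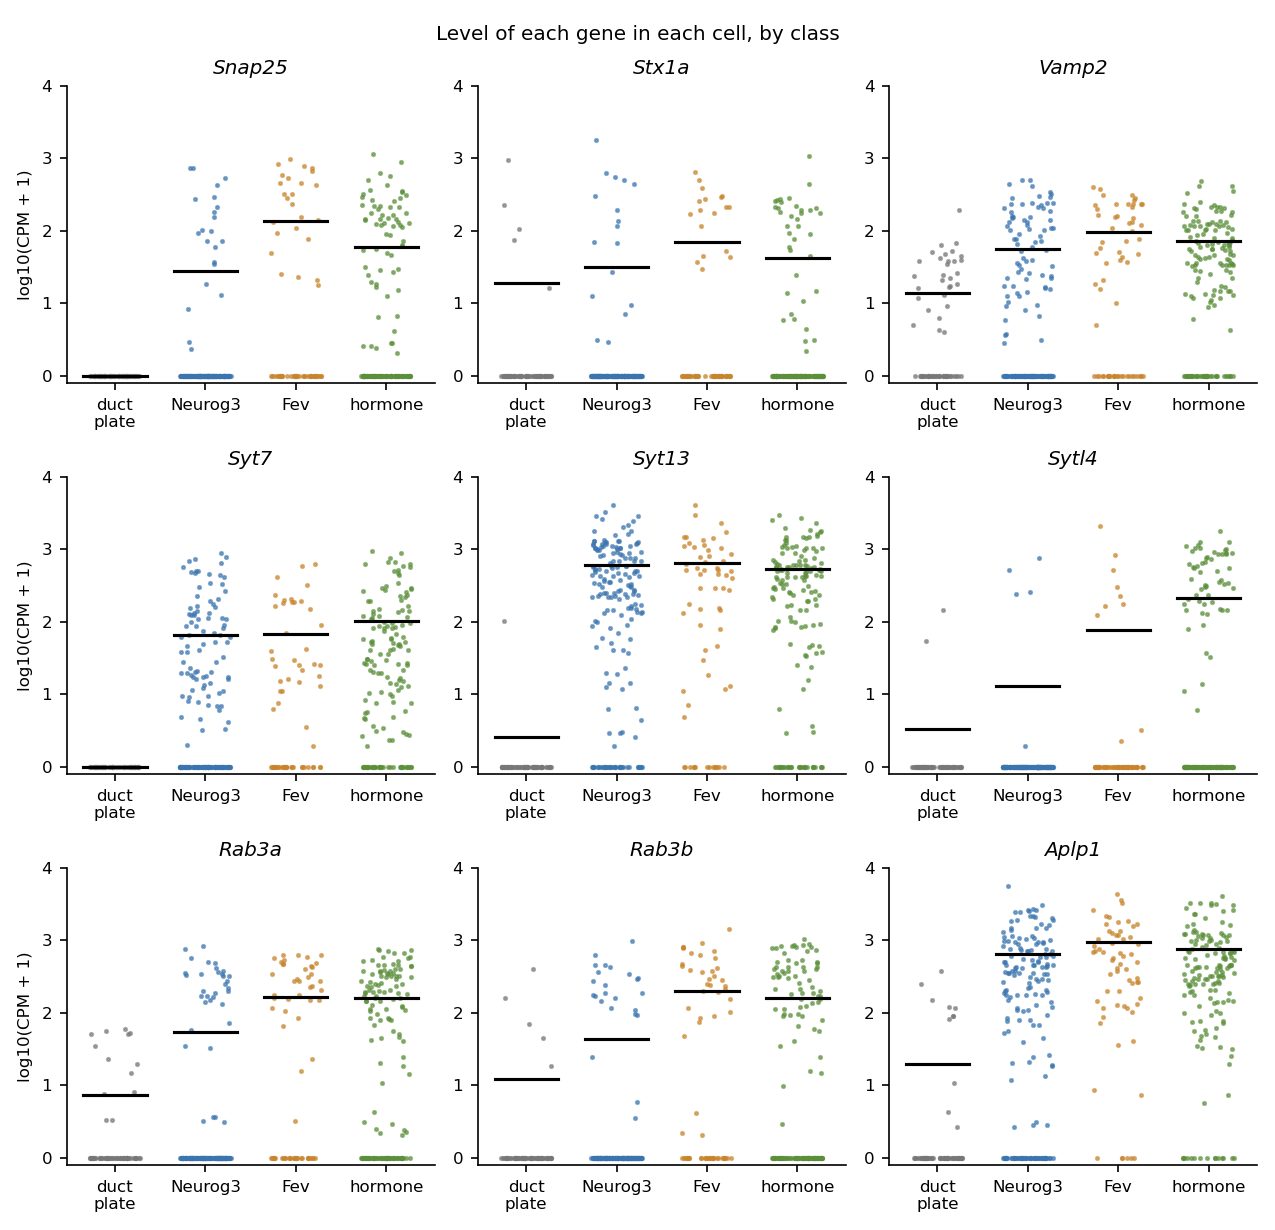
Level of each of the 9 genes in each cell, on a log10(CPM + 1) axis, for the 4 classes. Each point is a cell and each bar is the class level from summed counts. Snap25 and Syt7 sit at 0 in all 66 duct plate cells, and Syt13 and Aplp1 form a dense band from the Neurog3-positive class on.

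The libraries differ in ways the classes do not set. Cells held 200152 to 1182889 counts, and plate medians ran from 438470 to 851992, the highest in EA07. The median number of genes read was 2295 to 2705 on 5 of the plates outside EA04, 3902 on EA07 and 4335 on EA04. The ribosomal transcript Rn45s took 20.6% to 23% of the counts on EA01 to EA04 and 8.83% to 10.3% on EA05 to EA07, whose sample titles also end in a different form. The duct plate does not match its label cleanly: the 11 acinar markers summed to 37031 CPM, all 11 at 20 CPM or more. The 9 duct markers summed to 3175 CPM there, 8 of them at 20 CPM or more. The other, Cftr, was at 0 in every class. Of the duct plate cells, 43 had Cpa1 at 1000 CPM or more. Another 13 had the mesenchymal gene Col3a1 at 100 CPM or more without that, and 10 had neither. In the Neurog3-positive, Fev-positive and hormone-positive classes the 10 endocrine markers summed to 5475, 10821 and 9613 CPM. Neuronal markers, which matter here because neurons use most of the same genes, summed to 478, 272 and 253 CPM there, most of it Tubb3 at 377, 221 and 181 CPM, while Prph was at 0 in each; their part in the levels below was not tested. Hormone-positive cells of EA02 held 4022 CPM of acinar markers against 6.81 to 169.9 CPM on the other plates.

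The first comparison asks which genes differ between the duct plate and cells that express Neurog3. Syt13 had 1.54 CPM on the duct plate, from 1 cell at 20 CPM or more, and 613 CPM in Neurog3-positive cells, where 72.6% of cells had it at 20 CPM or more. Its ratio was 397-fold, with a counting interval of 297 to 544. Aplp1 had 18.7 CPM against 640.0 CPM, or 34.2-fold (31.4 to 37.2). The duct plate is from E15.5, and the Neurog3-positive cells of that day held less of both, with 328 CPM of Syt13 and 247 CPM of Aplp1, than those of E17.5, with 1049 and 1242 CPM.

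Syt7, the calcium sensor, had 0 counts in all 66 duct plate cells and 65.7 CPM in Neurog3-positive cells, which is at least 639-fold higher against a floor of 3 counts over the duct plate (0.103 CPM). Snap25 also had 0 counts there and 26.8 CPM in Neurog3-positive cells, at least 261-fold higher. A count of 0 in 66 cells allows a share of up to 4.55%. Rab3a had 6.41 against 53.7 CPM (8.38-fold, 7.24 to 9.74) and Vamp2 12.7 against 55.4 CPM (4.37-fold, 3.93 to 4.87). The Neurog3-positive cells of E15.5 had 39.5 CPM of Rab3a and 34.6 CPM of Vamp2. Their shares of cells at 20 CPM or more, 10.7% and 23.7%, were near the 10.6% and 25.8% of the duct plate. Stx1a, at 18.1 against 30.5 CPM, was within 2-fold, but few cells carried either level. Of its 528 duct plate counts, 449 were in the 10 cells with neither high Cpa1 nor Col3a1, where 2 had it at 20 CPM or more. The 43 cells with high Cpa1 had 4.26 CPM and the 13 Col3a1 cells 0. In the Neurog3-positive class 12 of 186 cells had it at 20 CPM or more.

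Rab3b had 11.2 CPM on the duct plate against 43.1 CPM, or 3.85-fold, but this direction depends on which cells are set side by side. All 327 of its duct plate counts were in the 13 Col3a1 cells, where 4 cells had it at 20 CPM or more, and none were in the 43 cells with high Cpa1. Within plates EA01 to EA04 the log2 ratio of Rab3b was -0.13, and for Neurog3-positive cells without Fev it was -0.15. Without EA07 it was 0.42. Sytl4 had 2.30 and 12.2 CPM, under the limit of 20 CPM in either class that a gene needed to count as measured.

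Of 8 genes measured, 7 were over 2-fold higher in Neurog3-positive cells and 0 were lower, by log2 ratio with 5 CPM added to each level. Among all 8199 genes measured, 24.1% were over 2-fold higher and 15.7% lower. The median log2 ratio was 2.52 for the 8 genes and 0.27 for all. Snap25 and Syt7, at 0 on the duct plate, could only be higher. Within plates EA01 to EA04, and also without EA07, 5 genes were over 2-fold higher. The duct plate is 1 plate, so its cells and its library cannot be told apart.

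The second comparison follows the step from Neurog3-positive to Fev-positive cells, and here the plates can be read one by one. Rab3a, a GTPase of secretory granules, ran from 12.5 to 77.2 CPM over the 6 plates of Neurog3-positive cells (median 53.3) and from 101.2 to 227 CPM over the 6 plates of Fev-positive cells (median 161). Its relative Rab3b ran from 4.95 to 106.6 CPM (median 28.8) and from 110.1 to 373 CPM (median 196). For both genes every plate of the Fev-positive class lay above every plate of the Neurog3-positive class, which held for 2 of the 9 genes and for 0.351% of the 7968 genes measured. None of the 9 had every Fev-positive plate lower, against 0.916% of genes. Over summed cells the ratios were 3.07-fold (2.96 to 3.18) for Rab3a and 4.62-fold (4.45 to 4.79) for Rab3b. The share of cells at 20 CPM or more was 16.1% and 53.1% for Rab3a, and 11.8% and 48.4% for Rab3b. On EA07 the share for Rab3b went the other way, at 37.1% of 35 Neurog3-positive and 30% of 10 Fev-positive cells.

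Snap25 ran from 0.157 to 102.5 CPM in Neurog3-positive plates (median 28.3) and from 84.5 to 314 CPM in Fev-positive plates (median 128.3). The ranges overlapped through EA05, whose 7 Neurog3-positive cells held the 102.5 CPM, yet within each of the 6 plates the Fev-positive cells were higher, by log2 ratios of 0.31 to 5.18. Its share of cells at 20 CPM or more was 9.14% and 37.5%, with intervals of 5.41% to 14.2% and 25.7% to 50.5%. Sytl4 had 0 counts on 4 of 6 Neurog3-positive plates and ran from 0.269 to 158.8 CPM in Fev-positive plates, over 2-fold higher in sum (77 against 12.2 CPM). Only 8 of the 64 Fev-positive cells, 12.5%, had it at 20 CPM or more, so a few cells carried that level.

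Stx1a was 2.30-fold higher over summed cells (70.3 against 30.5 CPM), but the log2 ratio was 0.29 without plate EA07 and 0.98 without EA02 or EA03. Vamp2 (95.5 against 55.4 CPM), Aplp1 (943 against 640.0 CPM), Syt13 (651 against 613 CPM) and Syt7 (67.5 against 65.7 CPM) were within 2-fold, though Vamp2 had a log2 ratio of 1.03 without EA05. Syt7 went either way by plate, with log2 ratios from -1.53 to 1.64. In all, 5 of 9 genes were over 2-fold higher and 0 lower, against 12.01% higher and 9.83% lower among all genes measured. The median log2 ratio was 1.08 for the 9 genes and 0.11 for all.

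**Figure D2:**
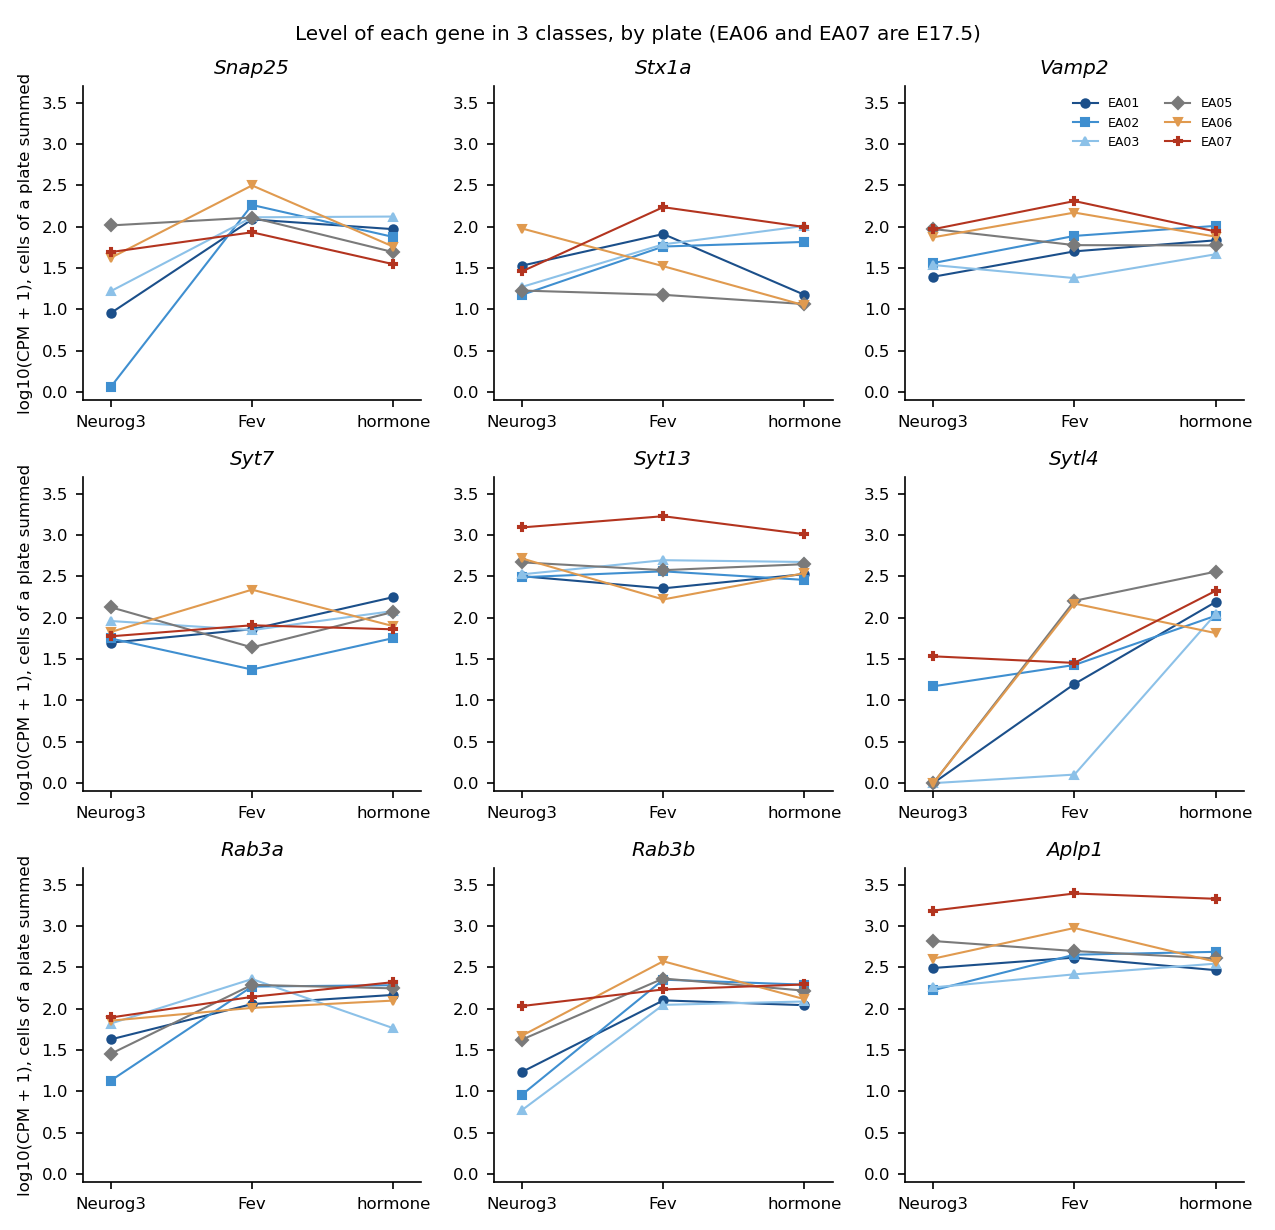
Level of each gene by plate in the Neurog3-positive, Fev-positive and hormone-positive cells, on a log10(CPM + 1) axis, each line a plate and each point the summed cells of that plate in that class. The Rab3a and Rab3b lines climb from the first class to the second on all 6 plates, and EA07 lies above the others for Syt13 and Aplp1 in every class.

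The Neurog3-positive cells were then split by Fev. In the cells without Fev and the 47 with Fev, Rab3b had 9.64 and 122.8 CPM, Snap25 11.8 and 62.5 CPM, and Aplp1 394 and 1225 CPM. Syt7 had 71.5 and 52 CPM. Rab3b was read at 20 CPM or more in 4.32% of the first and in 34% of the second. The split runs partly along the days, since 26 of the 47 cells with Fev were from E17.5, 19 of them from EA07, against 29 of those without. Rab3b had 2.49 and 57.9 CPM at E15.5 and 27.6 and 156.5 CPM at E17.5, and was higher with Fev within 4 of 6 plates. Aplp1 had 199 and 482 CPM at E15.5 and 884 and 1611 CPM at E17.5, higher with Fev within 5 of 6 plates. Snap25 had 13.3 and 17.3 CPM at E15.5 and 8.01 and 85.9 CPM at E17.5, and was higher with Fev within 3 of 6 plates only, so its pooled difference came mostly from E17.5. By the level of Neurog3 itself, the cells at 1000 CPM or more had 5.05 CPM of Rab3b and 9.25 CPM of Stx1a, and the 43 cells below that had 144.7 and 87.3 CPM. At E15.5 these were 2.47 and 12.3 CPM above and 60.5 and 68.2 CPM below, and at E17.5 they were 11 and 2.16 CPM above and 191 and 97.8 CPM below. By plate, Stx1a was higher in the cells below 1000 CPM on EA01, EA06 and EA07. It was lower there on EA02 (10.9 against 14.5 CPM), EA03 (0 against 19.7) and EA05 (0 against 21.3). On EA06 only 1 of 8 such cells had it at 20 CPM or more. Rab3b was lower in them on EA03 only (0 against 5.51 CPM). The values by day and plate were added after the data had been seen.

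The third comparison takes the last step, from Fev-positive to hormone-positive cells. Sytl4, the granule docking protein granuphilin, had 77 and 213 CPM, or 2.77-fold higher (2.66 to 2.87), and its share of cells at 20 CPM or more was 12.5% and 35.7%. It was higher within 5 of 6 plates and lower on EA06, with a log2 ratio of -1.14. Snap25 had 136.2 and 59.6 CPM, a fold of 0.438 (0.421 to 0.454), and was lower within 5 of 6 plates. Its share of cells hardly differed, at 37.5% and 33.8%, while the median among cells at 20 CPM or more was 302 and 147.95 CPM. Without EA06 the log2 ratio of Snap25 was -0.97, within 2-fold.

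The other 7 genes were within 2-fold: Rab3a at 165 and 162 CPM, Rab3b at 199 and 157.8, Syt7 at 67.5 and 100.9, Vamp2 at 95.5 and 70.5, Stx1a at 70.3 and 41.3, Syt13 at 651 and 531, and Aplp1 at 943 and 765 CPM. None of the 9 kept all 6 plates of a class apart from all 6 of the other, against 0.912% of genes higher and 0.203% lower. With 1 of 9 over 2-fold higher and 1 lower, the shares lie near those of all genes, 7.13% and 8.13%. The median log2 ratio was -0.30 for the 9 genes and -0.11 for all.

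Set directly against the Neurog3-positive cells, the hormone-positive cells had 4 of the 9 genes over 2-fold higher and 0 lower, against 9.60% and 9.32% of all genes. Sytl4 was 17.4-fold higher (16.5 to 18.4), Rab3b 3.66-fold (3.54 to 3.78), Rab3a 3.01-fold (2.92 to 3.10) and Snap25 2.22-fold (2.12 to 2.33). Sytl4 ran from 0 to 33.1 CPM in Neurog3-positive plates and from 64.1 to 359 CPM in hormone-positive plates, and Rab3b from 4.95 to 106.6 and from 109.2 to 195 CPM. These 2 genes had no overlap between the plates of the classes, as did 2.05% of all genes in that direction and 1.57% in the other, where none of the 9 did. Snap25 was higher on 4 of 6 plates only, and in plates EA05 to EA07 its summed log2 ratio was -0.14. Without EA01, EA02 or EA03 it was 0.75, 0.75 and 0.76, within 2-fold. Syt13 was the one gene of the 9 with less in hormone-positive cells (531 against 613 CPM), and it was lower on 4 of 6 plates, though its log2 ratio was 0.15 without EA07. The comparisons of the 3 sorted classes share cells, so they are not separate support for one another.

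**Figure D3:**
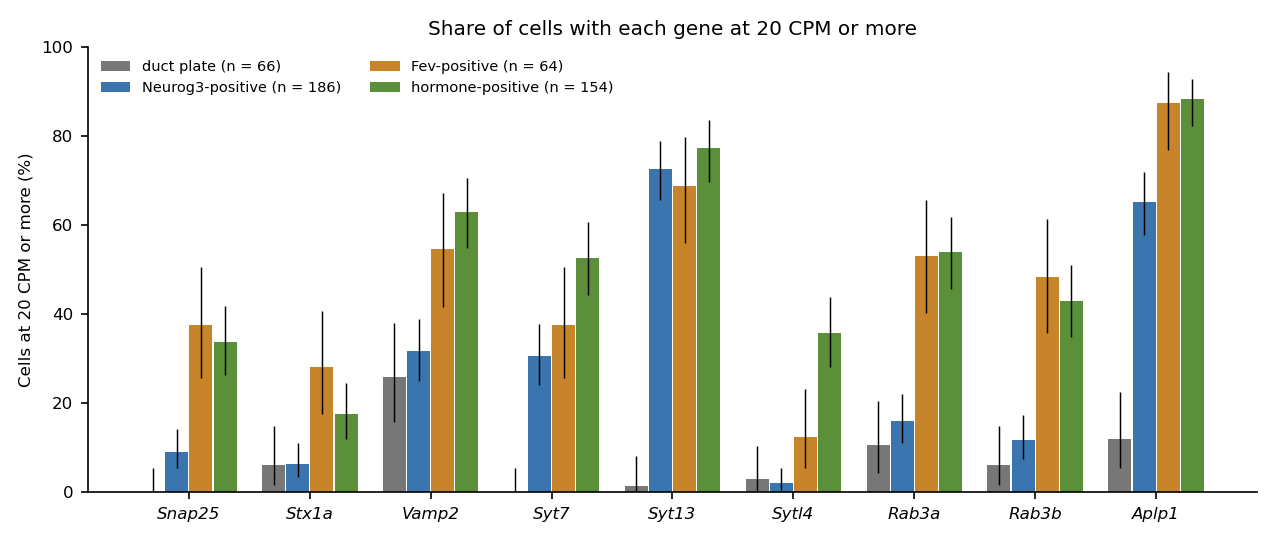
Share of cells with each gene at 20 CPM or more, in percent, for the 4 classes, with exact 95% binomial intervals as lines. Snap25, Rab3a and Rab3b step up at the Fev-positive class and Sytl4 at the hormone-positive class, while Syt13 lies between 68.8% and 77.3% in the 3 classes outside the duct plate.

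The hormone-positive cells were divided by the hormone with the highest level: 68 insulin, 28 ghrelin, 27 somatostatin, 19 glucagon and 12 pancreatic polypeptide (PP) cells. Of the 19695 counts of Sytl4 in these cells 19267 were in insulin cells. It had 498 CPM in insulin cells, with 53 of 68 (77.9%, 66.2% to 87.1%) at 20 CPM or more. It had 18.3 CPM in somatostatin cells and 6.96 CPM in ghrelin cells, each from 1 cell at 20 CPM or more, and 0 counts in the glucagon and PP cells. Against 3 counts over the glucagon cells (0.271 CPM) the insulin level was at least 1836-fold higher, though 0 of 19 cells allows a share of up to 15.8% and 0 of 12 up to 25%. Within each of 6 plates insulin cells had the higher level, from 207 to 656 CPM, against 0 to 63.4 CPM in the other hormone cells.

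Rab3b divided the hormones in another way. Somatostatin and insulin cells had 274 and 237 CPM, glucagon cells 70.6 CPM, ghrelin cells 7.99 CPM and PP cells 0.874 CPM from 7 counts. In ghrelin cells 1 of 28 had it at 20 CPM or more, against 16 of 27 somatostatin cells. Its relative Rab3a was less uneven, with 209.6 CPM in insulin, 154.3 in ghrelin, 148.2 in somatostatin, 98 in glucagon and 61.8 in PP cells. With the plates weighted equally, Rab3b had 253 CPM in insulin and 237 in somatostatin cells, and Rab3a 229.5 in ghrelin and 212 in insulin cells. The first place of each gene thus turned with the weighting. For Rab3a, 1 ghrelin cell of EA01 held 766 CPM, and the ghrelin cells of other plates 0 to 258 CPM.

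Syt13 had 778 CPM in insulin cells, where 66 of 68 had it at 20 CPM or more, 591 in PP, 497 in glucagon, 343 in somatostatin and 172 in ghrelin cells, where 12 of 28 did. Snap25 had 79.3 CPM in insulin, 70.9 in glucagon, 57.4 in ghrelin, 27.7 in somatostatin and 19.2 CPM in PP cells. Syt7 had its highest level in ghrelin cells at 145.4 CPM, then 112.9 in somatostatin, 105.4 in insulin, 42.7 in glucagon and 32.7 CPM in PP cells. Aplp1 lay between 605 CPM in glucagon and 942 CPM in ghrelin cells, Vamp2 between 48.1 in glucagon and 97.1 CPM in PP cells, and Stx1a between 24.5 in somatostatin and 72.2 CPM in ghrelin cells. The ghrelin, somatostatin, glucagon and PP cells are few per plate, from 0 to 12. Much of these orders moved when plates were weighted equally, a view added after the data had been seen. Aplp1 then lay between 581 CPM in somatostatin and 766 CPM in PP cells, and glucagon cells had more of it than ghrelin cells on 5 of 6 plates, the exception being EA07 (679 CPM in 1 cell against 2502 CPM in 6). Syt13 stayed highest in insulin cells at 806 CPM, followed by glucagon (532) and PP cells (529), where 2 EA07 cells held 2049 CPM and the PP cells of other plates 0 to 347 CPM. Snap25 was then highest in somatostatin cells (104.6 CPM), but 1 EA03 cell held 501 CPM and the somatostatin cells of other plates 0 to 61.1 CPM. Syt7 stayed highest in ghrelin cells (201 CPM).

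Insulin cells against all other hormone-positive cells gave 3 of 9 genes over 2-fold higher, Sytl4 (62.7-fold, 57 to 69.2), Rab3b (2.35-fold, 2.27 to 2.43) and Syt13 (2.21-fold, 2.17 to 2.25), and 0 lower. Among all 7835 genes measured 8.39% were higher and 13.8% lower. Without the hormone-positive cells that also had Neurog3, Syt13 and Rab3b were within 2-fold, at log2 ratios of 0.99 and 0.89, and Syt13 was within 2-fold without EA06, at 0.93. Snap25 was over 2-fold higher without EA05, at 1.02. Within each of 6 plates insulin cells were above the others for Syt13, Sytl4, Rab3a and Rab3b, as for 3.78% of all genes, while Aplp1, Vamp2 and Syt7 were above on 2 plates each and Snap25 and Stx1a on 3 each. This comparison was added after the data had been seen.

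**Figure D4:**
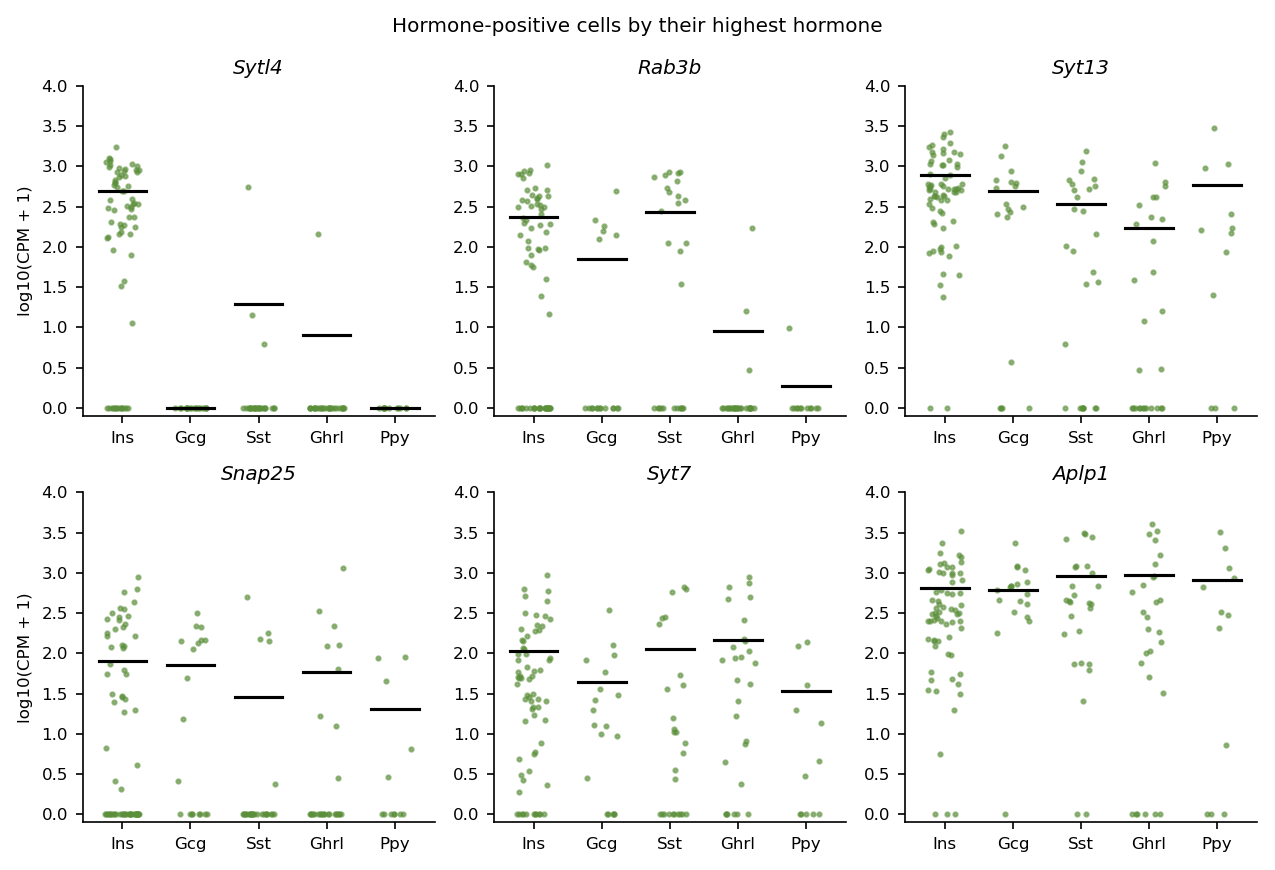
Level of 6 of the 9 genes in each hormone-positive cell, on a log10(CPM + 1) axis, by the hormone with the highest level (Ins insulin, Gcg glucagon, Sst somatostatin, Ghrl ghrelin, Ppy pancreatic polypeptide). Points are cells and bars are levels from summed counts. Sytl4 points above 0 lie almost all in the insulin column, and Rab3b points are sparse in the ghrelin and PP columns.

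The last comparison sets the 52 hormone-positive cells of E17.5 beside those of E15.5. Aplp1 had 1319.8 and 387 CPM, 3.41-fold higher at E17.5 (3.35 to 3.46), and was the 1 gene of 9 over 2-fold higher, with 0 lower, against 16.2% and 6.58% of all genes. This came from 1 plate. Aplp1 had 2126 CPM in the hormone-positive cells of EA07 and 368 CPM in those of EA06, inside the 291 to 485 CPM of the E15.5 plates, and without EA07 its log2 ratio was -0.07. EA07 had the same place in the other classes, with 1531 CPM in Neurog3-positive and 2465 CPM in Fev-positive cells against at most 656 and 944 CPM elsewhere. Syt13 followed the same plate, at 1019 CPM in hormone-positive cells of EA07 and 285 to 469.8 CPM on the other 5 plates. Without EA06 the log2 ratio of Syt13 between the days was 1.31. Stx1a, within 2-fold with all plates, was over 2-fold higher without EA02 (1.05), EA03 (1.39) or EA06 (1.55) and over 2-fold lower without EA07 (-1.21). Without EA07 Syt13 had a log2 ratio of -0.25. Snap25 was over 2-fold lower without EA05 (-1.08). EA07 also had the deepest libraries, and the part of depth in these levels was not tested.

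Sytl4 had 143.2 CPM at E17.5 and 260.4 CPM at E15.5, within 2-fold, with a log2 ratio of -1.94 without EA07 and 0.19 without EA05. The mix of hormones differed between the days: insulin cells were 53.9% of the hormone-positive cells at E15.5 and 25% at E17.5. Among insulin cells alone Sytl4 had 484 CPM at E15.5 (55 cells) and 540.2 CPM at E17.5 (13 cells), at 20 CPM or more in 78.2% and 76.9%. Rab3a and Rab3b differed little over all hormone-positive cells, at 169.7 against 156.1 CPM and 165 against 153.1 CPM. Among insulin cells Rab3b had 367 CPM at E17.5 and 194 CPM at E15.5.

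Levels can be set side by side between genes only per length. As CPM per kilobase of exon, the hormone-positive cells had 254 for Aplp1, 141.1 for Syt13, 72.6 for Rab3a, 44.8 for Rab3b, 41.5 for Sytl4, 18.5 for Vamp2, then Stx1a, 13.5 for Syt7 and 8.77 for Snap25. In Neurog3-positive cells Aplp1 (212) and Syt13 (163) stood over Rab3a at 24.1 and all others, the lowest being Sytl4 at 2.39. The 3 SNARE genes were thus among the lower of the 9 per length in hormone-positive cells.

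Genes whose levels ran most like each member were ranked by Spearman's rho over the 429 cells outside the duct plate, among 3668 genes. These are descriptions over cells that share plates and depth. Sytl4 ran most like Ero1lb (0.603), Ins1 (0.574) and Nnat (0.566). Rab3b ran most like the secretory granule genes Pcsk2 (0.441), Scg3 (0.431) and Chgb (0.423), and Aplp1 like Fxyd6 (0.429), Pcsk1n (0.419) and Chga (0.388). For Rab3a the leaders were Cpe (0.397), Abcc8 (0.391), a subunit of the beta cell potassium channel, and Dbpht2 (0.382), and for Snap25 Cpe (0.382), Pam (0.368) and Scg3 (0.359). Cpe, the prohormone carboxypeptidase, also led for Vamp2 (0.327) and was among the 3 closest for Stx1a (0.277). Syt13 had Aplp1 (0.293) and Acly (0.292) among its 3 closest. These had 0.091 and 0.068 within EA01 to EA03, against 0.376 and 0.415 within EA05 to EA07. Syt7 had no close partner, with Papss2 at 0.244, Hsp90b1 at 0.231 and Rbp4 at 0.230. The 9 genes were only loosely tied to one another, with a median rho of 0.145 over their 36 pairs.

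The close relatives of the 9 genes differed in which classes read them. Rab27a, the GTPase that Sytl4 binds, had 3.46 CPM on the duct plate, 16 in Neurog3-positive, 46 in Fev-positive and 45.1 CPM in hormone-positive cells. In the same order Syt5 had 1.30, 48.9, 60.8 and 39.5 CPM, and Rab3c 0, 18, 28.3 and 18.2 CPM. The widely used SNAREs Snap23 (38.5 to 54.4 CPM), Vamp3 (129.8 to 198 CPM) and Vamp8 (162 to 213 CPM), and Rab3d (100.1 to 129.01 CPM), had like levels in all 4 classes, duct plate included. Syt1, Syt4, Syt9 and Vamp1 did not pass 5 CPM in any of them. Sytl2 had 5.52 CPM on the duct plate and 0 elsewhere. App, the amyloid precursor protein, had 125.3, 467, 328 and 292 CPM and Aplp2 199, 265, 167 and 101.4 CPM. Over summed cells Aplp1 was thus the one of the 3 with its highest level in the Fev-positive class. By plate this held for Aplp1 on EA01, EA06 and EA07. Hormone-positive cells had more than Fev-positive cells on EA02 (485 against 448 CPM) and EA03 (349 against 259 CPM). On EA05 Neurog3-positive cells had the most (656 against 496 CPM in Fev-positive cells).

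A list of other exocytosis genes was read in the same comparisons. In Neurog3-positive against duct plate cells 23 of 68 measured were over 2-fold higher and 5 lower, against 24.1% and 15.7% of all genes. In Fev-positive against Neurog3-positive cells 9 of 71 were higher and 3 lower, against 12.01% and 9.83% of all genes, with a median log2 ratio of 0.08 against 0.11 for all genes. In hormone-positive against Neurog3-positive cells 7 of 70 were higher and 4 lower, shares near the 9.60% and 9.32% of all genes. Those higher were Exph5 (27.9 against 0.323 CPM), Rab37, Sv2a, Rab27a, Stxbp3a, Unc13b and Vamp4, at log2 ratios of 2.63 to 1.05. Those lower were Stx2, Rph3al (35.4 against 137.1 CPM), Aplp2 and Stxbp6, at log2 ratios of -1.86 to -1.25. Exph5 and Rph3al both encode Rab27 binding proteins, and they stood at opposite ends of the list. In insulin against other hormone-positive cells 3 of 72 were higher and 14 lower, against 8.39% and 13.8% of all genes.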

How the data were processed

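The deposited values are raw counts, unnormalized, for each gene in each cell; STAR, HTSeq, FastQC and mm10 are named in the submitters' processing notes, with versions and settings not given in the sources used here. All 495 columns were matched to a sample by name, and 0 pairs of cells were identical. No cell was removed and no doublet caller was run. Counts were summed over the cells of a class and divided by the summed totals (CPM). Log2 ratios used a pseudocount of 5 CPM on genes at 20 CPM or more in either class, and a call is a ratio over 2-fold. Levels carry exact Poisson, shares exact Clopper-Pearson and ratios exact binomial 95% intervals, while a count of 0 is given as a floor of 3 counts, or 3 cells for a share, in place of an interval. With 1 sample a class no p-value was computed. All 9 members are named; the genes most like each were the 3 with the highest rho among genes read in at least 25% of cells, and from the list those over 2-fold in hormone-positive against Neurog3-positive cells plus close relatives. Some genes that these rules name are not reported here. Members and lists were chosen with earlier results of these data known. Alternatives were edgeR 4.0.16 TMM and DESeq2 1.42.0 factors as scalings, other cutoffs, pseudocounts and filters, and plates left out. The scripts (Python 3.11.15, R 4.3.3) were tested on simulated data.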

Additional observations from a re-analysis of the deposited data

Results flagged for a closer look

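Single plates stood apart from the other 5 in 8 of the 27 sets of 6 plates (9 genes in 3 classes). How many would do so by chance was not worked out, and the sets share plates and cells. Of the 8, 6 were EA07: Syt13 at 1231 CPM in Neurog3-positive, 1682 CPM in Fev-positive and 1019 CPM in hormone-positive cells, and Aplp1 at 1531, 2465 and 2126 CPM in the same order. The others were EA06, for Stx1a at 94 CPM in Neurog3-positive and Syt7 at 217 CPM in Fev-positive cells. There 2 of 20 cells had Stx1a, and 3 of 5 had Syt7, at 20 CPM or more.

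Syt7 in hormone-positive against Fev-positive cells was lower on both E17.5 plates (median log2 ratio -0.78) and higher on all 4 E15.5 plates with sorted cells (0.73 to 1.34). The difference was not tested, and the E17.5 Fev-positive cells numbered 5 and 10.

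The 25 cells with none of Neurog3, Fev or a hormone past the cutoffs, which no comparison used, had more of every one of the 9 genes than the duct plate. They had 102.5 CPM of Snap25, 31.3 of Stx1a, 34.3 of Vamp2, 49.6 of Syt7, 412 of Syt13, 35.2 of Sytl4, 61 of Rab3a, 77.9 of Rab3b and 399 CPM of Aplp1. The 10 endocrine markers summed to 5517 CPM in them. For some of the 9 genes few of the 25 cells carried the level. Sytl4 was at 20 CPM or more in 2 cells, Stx1a in 3 and Snap25 in 5. The highest single cells held 914 CPM of Sytl4 and 1315 CPM of Snap25.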

How the results depend on the processing

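The counts for Neurog3-positive against duct plate cells and for Fev-positive against Neurog3-positive cells stayed within 1.5 times under every alternative run. For hormone-positive against Fev-positive cells, the 1 gene lower became 0 with the mean of cells' CPM, a pseudocount of 20 CPM, a Fev cutoff of 100 CPM or EA01 to EA04 alone (0 to 1 with a plate left out), and the 1 gene higher became 2 in EA01 to EA04. For E17.5 against E15.5, the 1 gene higher became 2 with a hormone cutoff of 500 CPM or in EA05 to EA07 (0 to 3 with a plate left out), and the 0 genes lower became 1 with TMM, a hormone cutoff of 5000 CPM or EA05 to EA07 (0 to 2 with a plate left out). The 4 genes higher in hormone-positive than Neurog3-positive cells became 2 in EA05 to EA07. The 3 genes higher in insulin cells became 1 with stricter classes. Of the directions over 2-fold, those reversed were Rab3b against the duct plate (-0.15 with stricter classes, -0.13 in EA01 to EA04), Aplp1 at E17.5 (-0.07 without EA07, up to 2.44 without EA06) and Snap25 in hormone-positive against Neurog3-positive cells (-0.14 in EA05 to EA07). Stx1a at E17.5, within 2-fold at 0.84, also changed sign (-1.21 without EA07). The cause was not tested. Scaling moved the median log2 ratio of all genes against the duct plate from 0.27 to 0.04 (TMM) and -0.09 (DESeq2), and at E17.5 from 0.17 to 0.00 (TMM) and 0.01 (DESeq2). The duct comparison has no value without EA04 or in EA05 to EA07, nor the day comparison in EA01 to EA04. No paired analysis was possible because no result comes from a test; values within plates are given as descriptions. The 0 counts of Sytl4 in PP and glucagon cells rest on 12 and 19 cells.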
